A study of Homo sapiens with 60 samples.

Results

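The dose series of 1 herbal extract was examined in HepG2, a line from a human liver carcinoma that keeps many liver functions. The extract was made with 70% ethanol from Angelicae Gigantis Radix, the dried root of Korean angelica, known for its coumarins decursin and decursinol angelate, and is called Angelica here. Cells were exposed for 24 h to 500, 100 or 20 µg/mL, and RNA was sequenced. The 6 libraries of this extract, 2 per dose, were taken by treatment label from the 60 libraries of the series, and those at 500 µg/mL were compared with those at 20 µg/mL. The libraries at 100 µg/mL divide this 25-fold range of dose into 2 steps of 5-fold. No vehicle library entered, so every change is relative to cells that also received extract, and an effect already full at 20 µg/mL is not seen. The series text says that extracts toxic below 500 µg/mL were given at lower doses, whereas the treatment labels give 500, 100 and 20 µg/mL and the titles only high, medium and low dose. The doses of the treatment labels are used. The labels do not say whether the 2 libraries of a dose, numbered replicate 2 and replicate 3, came from separate cultures. The p-values rest on a spread estimated within the dose groups of all 57 extract libraries together. That spread may be technical, and for Angelica alone it is known from only 2 libraries a dose.

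Hepatocytes meet plant compounds with several transcriptional programmes. The aryl hydrocarbon receptor, AhR, is a ligand-activated factor that binds DNA with its partner ARNT and drives CYP1A1, a monooxygenase of planar aromatic compounds. NRF2 is held down by KEAP1 until electrophiles modify KEAP1, and then acts through antioxidant response elements on reductases, glutathione enzymes and export pumps. The sterol-sensing factors SREBP1 and SREBP2 drive the synthesis of fatty acids and cholesterol, and liver cells adjust them to sterol, insulin and energy status.

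The 6 libraries held between 21735221 and 30407966 expected counts, and 16651 genes passed the filter on low counts. The share of counts from the mitochondrial genome, a measure that moves with RNA and cell quality, was 20.46% and 19.03% at 500 µg/mL, 16.77% and 17.11% at 100 µg/mL and 17.73% and 21.91% at 20 µg/mL, and the range at 500 lay within that at 20. On the first principal component of the 6 libraries, which held 26.8% of the variance, replicate 2 at 500 µg/mL stood at -37.9 and the other 5 libraries between 2.11 and 23.2. Its part in the results was not tested beyond leaving it out, and values without it are given where they differ. The 11 hepatocyte and HepG2 markers tested summed to 58331 and 60433 CPM (counts made comparable between libraries with TMM factors) at 20 µg/mL and to 55656 and 54052 CPM at 500 µg/mL, so the cells carried the transcripts of their label. Of 15 markers of leukocytes, endothelium, fibroblasts, erythroid cells and bile duct, 8 were tested, and 6 of them, without LYZ and ACTA2, summed to between 9.99 and 13.4 CPM in every library. PTPRC, CD3E, CDH5, COL3A1, DCN, HBB and KRT7 did not pass the filter. With LYZ and ACTA2 the sums were 1367 and 1391 CPM at 20 and 1455 and 1166 CPM at 500 µg/mL. In bulk RNA, fewer cells of a type and less RNA per cell cannot be told apart.

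Between 20 and 500 µg/mL, 171 of 16651 genes were called at an adjusted p below 0.05 (edgeR quasi-likelihood test, two-sided, Benjamini-Hochberg over all genes). Of these, 65 rose, 0.390% of the genes tested, and 106 fell, 0.637%. The changes were small. The median size was 1.31-fold among rises and 1.27-fold among falls, and only 5 rises and 2 falls reached 2-fold. Besides CYP1A1, AKR1B10 and AKR1C2 these were genes of low level, named after their values were seen: the pseudogenes NMRAL2P and RPSAP12 rose, and UROC1, a urocanase of histidine breakdown, and AC007325.2 fell, the latter to 0 counts in both libraries at 500 µg/mL. For every called gene both libraries at 500 lay outside the range of both at 20 µg/mL. The call in the same libraries favours this, and the share over all genes was not counted, so it adds no support. DESeq2 called 269 genes, 130 higher and 139 lower, and without a filter on low counts edgeR called 241 higher and 142 lower. Leaving out 1 library left 76 calls without replicate 2 at 20, 41 without replicate 3 at 20 and 47 without replicate 2 at 500 µg/mL, whereas 193 were called without replicate 3 at 500, 128 higher and 65 lower. The count and its split therefore depend on single libraries, and 15 named genes were called in each of the 17 alternatives run: the rises of CYP1A1, AKR1B10, AKR1C1, AKR1C2, PTGR1, NQO1, OSGIN1, GSR, ABCC3, ALDH1A1, CPLX2 and CYP24A1 and the falls of ACSS2, FADS2 and HMGCS1.

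**Figure D1:**
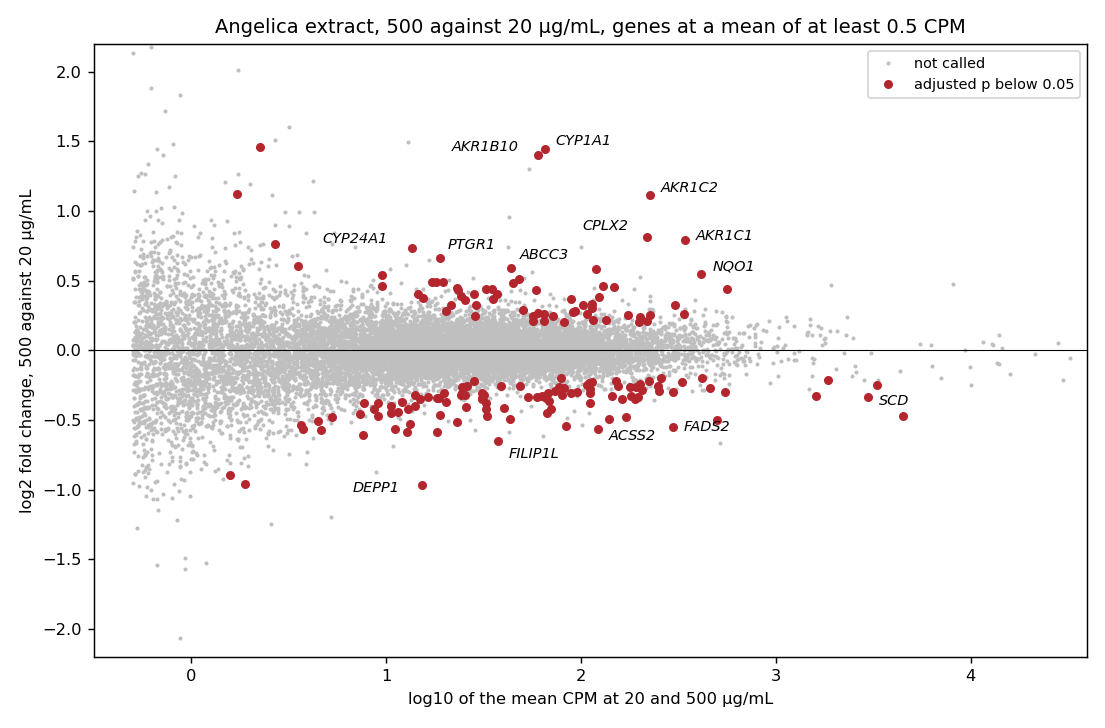
Each point is a gene with a mean of at least 0.5 CPM, placed by the log10 of its mean CPM at 20 and 500 µg/mL and by its log2 fold change from 20 to 500 µg/mL, with called genes in red. Most called genes lie within 1 log2 unit of 0, and CYP1A1, AKR1B10 and AKR1C2 lie above it with 2 pseudogenes of low level.

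CYP1A1 had the largest rise of the genes named by rule and called between 20 and 500 µg/mL (chromosome 15, 74719542 to 74725610, GRCh38). It read 34.8 and 35.3 CPM at 20 µg/mL, 56.98 and 51.5 at 100 and 97.2 and 94.0 at 500. Both libraries at 100 lay between those at 20 and 500, which the naming rule required not to overlap. The rise from 20 to 500 µg/mL was 2.72-fold (log2 1.45 ± 0.12 SE, n = 2 libraries a dose, edgeR adjusted p = 1.66e-11). It was divided over both steps, with log2 0.63 from 20 to 100 (adjusted p = 0.0865) and 0.82 from 100 to 500 (adjusted p = 2.9e-05), and the difference between the steps was 0.19 ± 0.20 (adjusted p = 1). Of the 7 AhR target genes tested, CYP1A1 and NQO1 rose and none fell. NQO1 is also in the NRF2 list of thioredoxin and quinone genes, so its call is counted in both. The median log2 change was 0.99 over the AhR list against -0.0025 over all genes. With a minimum of 5 CPM only 3 of the 7 remained, and their median was 0.54. CYP1A2, AHRR and UGT1A6 had positive values of 1.27, 0.99 and 1.27 that did not pass, at means under 1 CPM in each dose, and CYP1B1 did not pass the filter. TIPARP, an AhR target that acts back on the receptor, read -0.08. Of the 7 genes of the receptor complex and its partners edgeR called 0, with 4 at an unadjusted p under 0.05 and 0 called by DESeq2.

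CYP1A1 already differed between extracts at the lowest dose. Its mean at 20 µg/mL was 35.1 ± 0.378 CPM (SD, n = 2) with Angelica. With the 6 other extracts of 2 or 3 libraries it was highest for Sagunja-tang, at 13.8 ± 0.312 CPM (n = 2), and lowest for Cnidii Rhizoma, at 8.91 ± 0.447 CPM (n = 3). Samul-tang, a formula that contains angelica root, stood between these extracts and Angelica, at 23.5 CPM in its 1 library. No library of another extract at this dose reached those of Angelica. These levels are a description without a test, and extract is confounded with the code prefix of the libraries except for Paeoniae Radix, which shares the prefix of Angelica and read 10.5 ± 0.308 CPM.

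The stretch before the CYP1A1 start is shown because it holds the AhR core motif GCGTG, in capitals, with its first base 57 bases upstream of the RefSeq start. It is chr15:74725544-74725623, read on the gene strand (minus), GRCh38.p14, and covers bases 95 to 16 upstream of that start.
CYP1A1: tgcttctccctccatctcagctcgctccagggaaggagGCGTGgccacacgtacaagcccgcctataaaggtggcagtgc
The motif was searched on both strands of the 250 bases before each start. It is common: 36.2% of 27305 genes in the RefSeq promoter table held it, 51.6% of the 11333 tested genes with an entry, 56.2% of called rises (27 of 48) and 53.8% of called falls (42 of 78). The motif alone thus did not separate rises from falls, and a match is not a bound site.

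**Figure D2:**
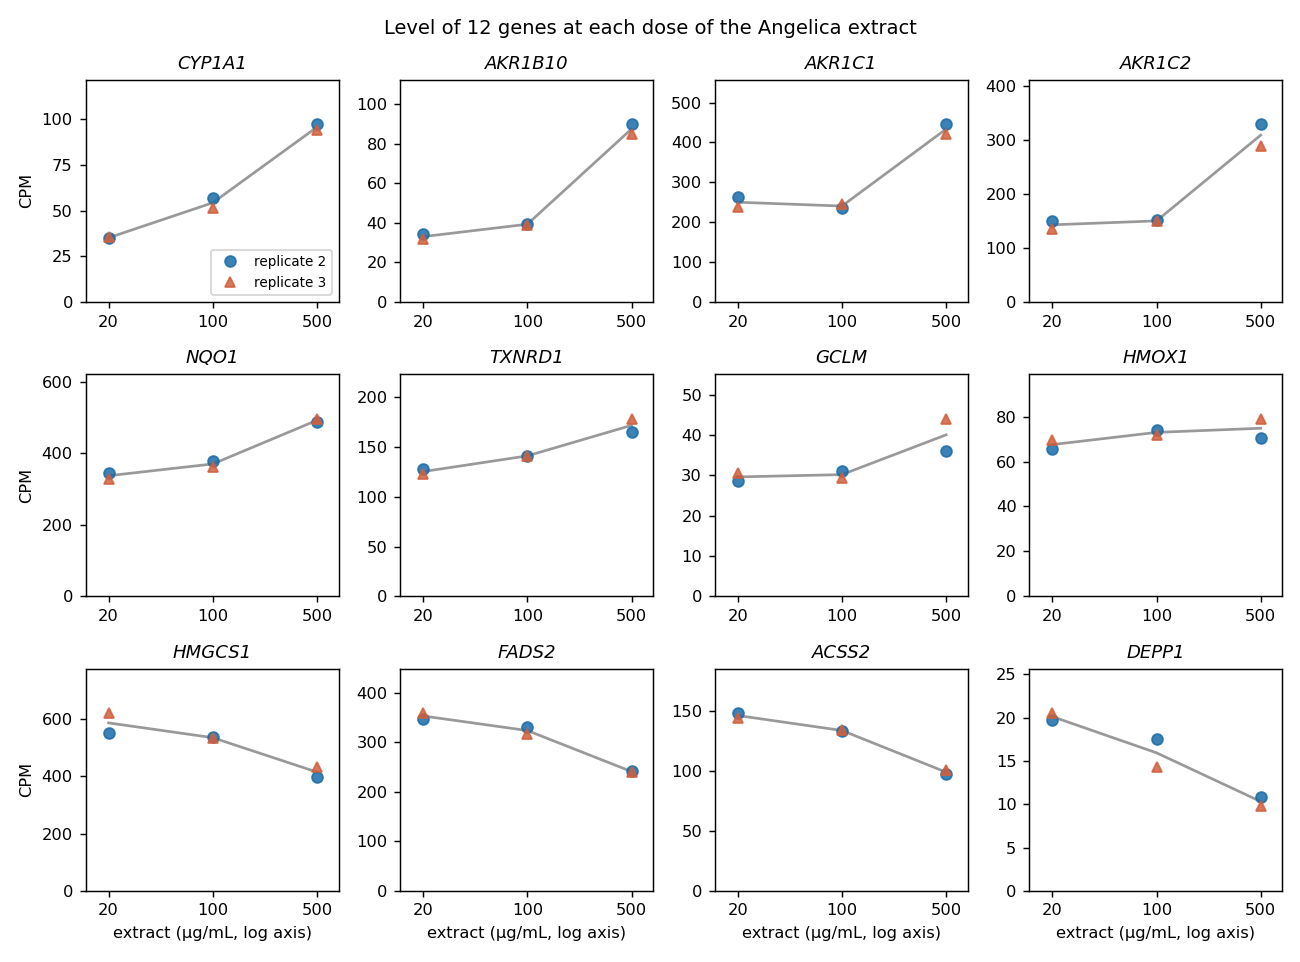
Levels of 12 genes in CPM are drawn against the dose (20, 100 and 500 µg/mL, log axis), with a symbol for each of the 2 libraries of a dose and a line through their means. CYP1A1 rises at both steps, whereas AKR1B10, AKR1C2 and AKR1C1 stay near their low-dose level at 100 and are higher at 500 µg/mL.

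The aldo-keto reductases, NADPH-dependent enzymes that reduce aldehydes, ketones and steroids, were the strongest group of NRF2 target genes. AKR1B10, a reductase of retinal and reactive aldehydes, read 34.2 and 31.9 CPM at 20, 39.7 and 39.0 at 100 and 90.0 and 85.1 at 500 µg/mL. Its rise was 2.65-fold (log2 1.405 ± 0.09, edgeR adjusted p = 9.39e-15), of which 0.25 fell to the lower step (adjusted p = 1) and 1.15 to the upper (adjusted p = 6.01e-12). AKR1C2 read 150.5 and 135.3, then 151.1 and 149.3, then 329.4 and 288.7 CPM, a rise of 2.16-fold (log2 1.11 ± 0.08, adjusted p = 1.08e-12). AKR1C1 read 262.4 and 237.7, 236.4 and 244.4, and 445.8 and 421.2 CPM (log2 0.79 ± 0.07, adjusted p = 1.17e-09). Both reduce ketosteroids, and their transcripts are near-identical, so reads may have been divided between them and the separate values are uncertain. In all 3 genes the libraries at 100 lay close to those at 20. Those at 500 stood apart, which the naming rule required. PTGR1, which reduces the double bond of leukotriene and prostaglandin metabolites, rose from 14.6 and 14.7 to 24.6 and 22.03 CPM (log2 0.67 ± 0.09, adjusted p = 1.82e-06). Of 7 reductases tested 4 rose, none fell and the median was 0.67. The count was 4 in 16 of the 17 alternatives and 5 without a filter, where 2 more reductases of low level entered and the median was 0.30. AKR1C3, CBR1 and AKR1B1 read 0.29, 0.26 and 0.16 and did not pass.

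Of the 7 thioredoxin and quinone genes 5 rose and none fell, with a median of 0.37. NQO1, the quinone reductase, read 345 and 330 CPM at 20, 379 and 361 at 100 and 488 and 497 at 500 µg/mL (log2 0.55 ± 0.07, edgeR adjusted p = 4.74e-06). OSGIN1, an oxidative stress-induced growth inhibitor, went from 39.99 and 39.6 to 57.2 and 56.6 CPM (log2 0.52 ± 0.08, adjusted p = 0.000102). TXNRD1, thioredoxin reductase, read 128 and 123 CPM at 20, 142 and 141 at 100 and 165 and 179 at 500 µg/mL (log2 0.46 ± 0.07, adjusted p = 5.18e-05). In each of these 3 genes both libraries at 500 lay above those at 100. SRXN1, which repairs oxidised peroxiredoxins, rose by 0.37 (adjusted p = 0.00157). TXN, thioredoxin itself, named after its values were seen, rose by 0.33 (adjusted p = 0.0271). PRDX1 read 0.33 and EPHX1 0.07 without passing. Without replicate 3 at 20 µg/mL, 3 of the 7 were called and SRXN1 was not (adjusted p = 0.12).

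Genes of glutathione synthesis and reduction rose less. GSR, glutathione reductase, read 113.5 and 104.4 CPM at 20, 120.7 and 114.4 at 100 and 153.2 and 147.4 at 500 µg/mL (log2 0.46 ± 0.07, edgeR adjusted p = 1.25e-05). GCLM, the modifier subunit of glutamate-cysteine ligase, read 28.7 and 30.6, 31.1 and 29.3, and 36.04 and 44.1 CPM (log2 0.44 ± 0.09, adjusted p = 0.00289). The catalytic subunit GCLC rose by 0.21 (adjusted p = 0.0412) and the peroxidase GPX2 by 0.44 (adjusted p = 0.043). In all, 4 of 11 genes of glutathione and NADPH supply rose and none fell, with a median of 0.21. GCLM lost its call without replicate 2 at 20 (adjusted p = 0.0817) or replicate 3 at 500 (adjusted p = 0.155). GCLC lost it without any one of the 4 libraries at 20 and 500, and GPX2 without either library at 20 or replicate 2 at 500. The list count was then between 1 and 3. SLC7A11, the cystine importer, read 0.17 (adjusted p = 0.523), and PGD, an NADPH-forming enzyme of the pentose phosphate route, read 0.07. The heme and iron genes of NRF2 had no call by edgeR. HMOX1, heme oxygenase 1, read 65.5 and 69.5 CPM at 20 and 70.5 and 79.1 at 500 µg/mL (log2 0.15, adjusted p = 0.475), and 0 of 7 genes of this list were called, with 6 values above 0, a median of 0.14, 2 at an unadjusted p under 0.05 and 1 called by DESeq2. FTL, the ferritin light chain, read 0.48 (adjusted p = 0.0578), with 11226 CPM in replicate 2 and 7775 in replicate 3 at 500 against 7105 and 6530 at 20. Of 7 regulators, NFE2L2 and KEAP1 among them, edgeR called 0, with 2 at an unadjusted p under 0.05 and 1 called by DESeq2.

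Promoter stretches with the core of the antioxidant response element, TGACNNNGC, are shown for called NRF2 list genes that held it, with the match in capitals. All are 80 bases from RefSeq on GRCh38.p14, read on the gene strand, and a match on the opposite strand appears as its reverse complement. GCLM is chr1:93909431-93909510 (minus), with the match starting 34 bases upstream, on the opposite strand. GPX2 is chr14:64942824-64942903 (minus), at 122 bases, opposite strand. TXNRD1 has 2 annotated starts with a match, chr12:104215644-104215723 (plus), at 99 bases on the gene strand, and chr12:104286894-104286973 (plus), at 102 bases on the opposite strand.
GCLM: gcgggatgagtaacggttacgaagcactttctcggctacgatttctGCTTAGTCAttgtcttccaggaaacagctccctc
GPX2: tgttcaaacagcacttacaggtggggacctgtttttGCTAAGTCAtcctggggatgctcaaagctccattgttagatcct
TXNRD1, upstream start: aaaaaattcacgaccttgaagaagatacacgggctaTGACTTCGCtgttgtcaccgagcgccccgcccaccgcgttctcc
TXNRD1, downstream start: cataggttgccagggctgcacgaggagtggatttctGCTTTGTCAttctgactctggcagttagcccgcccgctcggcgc
Of 11 called NRF2 list genes with a promoter entry 3 held the motif within 250 bases, on either strand. Its share was 13.2% of all genes in the table, 15.9% of tested genes, 18.8% of called rises (9 of 48) and 16.7% of called falls (13 of 78). AKR1B10 had no entry.

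Among glutathione transferases, ABC export pumps and targets of PXR and CAR, 5 genes were called, all higher. GSTA1 and GSTA2, glutathione transferases of hepatocytes, rose by 0.44 (edgeR adjusted p = 0.0119) and 0.49 (adjusted p = 0.0114) from 28.6 and 26.7 to 36.5 and 38.5 CPM and from 14.2 and 14.3 to 20.0 and 20.1 CPM. They are close paralogs that can share reads, and neither was called once any 1 library at 20 or 500 µg/mL was left out. Of 14 transferases no other rose and none fell, with a median of 0.07. ABCC3, an export pump for conjugates in the basolateral membrane, rose from 37.0 and 32.7 CPM to 54.7 and 50.4 (log2 0.59 ± 0.07, adjusted p = 8.49e-08). ABCC2, its counterpart in the canalicular membrane, rose by 0.26 (adjusted p = 0.0199), a call lost without any 1 of the 4 libraries at 20 and 500. UGT1A1, the bilirubin glucuronosyltransferase, rose by 0.49 (adjusted p = 0.00628) and was the 1 called gene of 11 targets of PXR and CAR, the drug-sensing nuclear receptors. Its call was lost without either library at 20 or replicate 2 at 500. CYP3A4, the best known PXR target, was scarcely detected, at 0.121 to 0.459 CPM in the 6 libraries (log2 -0.12 ± 0.53, adjusted p = 0.969).

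Other large rises lay outside these lists. CPLX2, complexin 2, a regulator of vesicle fusion, read 159.8 and 157.8 CPM at 20, 189.1 and 184.3 at 100 and 287.0 and 270.7 at 500 µg/mL (log2 0.81 ± 0.08, edgeR adjusted p = 4.62e-09). CYP24A1, the vitamin D 24-hydroxylase, read 9.47 and 11.0, 13.6 and 12.4, and 17.1 and 17.0 CPM (log2 0.73 ± 0.09, adjusted p = 5.26e-07). For both genes the libraries at 100 lay between those at 20 and 500, which the naming rule required not to overlap. ALDH1A1, which oxidises retinal, rose from 96.8 and 94.6 to 146.1 and 141.0 CPM (log2 0.58 ± 0.07, adjusted p = 1.21e-06), with 104.2 and 97.5 at 100. The long noncoding RNA CYTOR rose from 8.055 and 7.497 to 12.4 and 10.3 CPM (log2 0.54 ± 0.12, adjusted p = 0.0133). It lost its call without either library at 20 or replicate 2 at 500.

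Genes of cholesterol synthesis fell together in number, each by a small amount. Of 21 tested, 10 fell, none rose, and 20 had a value below 0, with a median of -0.27 against -0.0025 over all genes. HMGCS1, which forms the substrate of the pathway's rate-limiting step, read 552 and 621 CPM at 20, 535 and 534 at 100 and 397 and 433 at 500 µg/mL (log2 -0.50 ± 0.06, edgeR adjusted p = 5.26e-07). FDFT1, squalene synthase, read 610 and 600, 591 and 597, and 495 and 488 CPM (log2 -0.30 ± 0.05, adjusted p = 9.53e-05). IDI1, which interconverts the isoprenoid units, fell by 0.33 (adjusted p = 0.000944), and SC5D, a late sterol desaturase, by 0.35 (adjusted p = 0.00519). For HMGCS1 and FDFT1 the 2 libraries at 500 lay well below those at 100, and both at 100 lay just under those at 20. IDI1 and SC5D lost their calls without replicate 3 at 20 or replicate 2 at 500. The number called was 3 without replicate 2 at 500, 6 without either library at 20 and 13 by DESeq2, and the median stayed between -0.28 and -0.24 in every alternative.

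Fatty acid synthesis followed the same direction, with 7 of 17 genes lower, none higher and all 17 values below 0 (median -0.24). FADS2, the delta-6 desaturase, read 348 and 360 CPM at 20, 331 and 318 at 100 and 242 and 240 at 500 µg/mL (log2 -0.55 ± 0.06, edgeR adjusted p = 6.96e-09). ACSS2, which makes acetyl-CoA from acetate, read 148.1 and 144.0, 132.8 and 134.4, and 97.4 and 100.3 CPM (log2 -0.56 ± 0.06, adjusted p = 8.07e-09). SCD, the stearoyl-CoA desaturase, read 3272 and 3407, 3245 and 3262.1, and 2600 and 2686 CPM (log2 -0.34 ± 0.05, adjusted p = 1.25e-05). In each of these genes the libraries at 100 lay at or just under those at 20, well above those at 500. ELOVL6, an elongase of saturated fatty acids, fell by 0.42 (adjusted p = 0.000626), a call lost without replicate 3 at 20 or replicate 2 at 500. SREBF1, which encodes SREBP1, fell by 0.30 from 94.8 and 102.8 to 79.7 and 80.4 CPM (adjusted p = 0.0254). SREBF1 lost its call without replicate 3 at 20 or either library at 500, and the list kept 3 calls without replicate 3 at 20 or without replicate 2 at 500. The sterol regulatory element form TCACNCCAC was found, on either strand, in none of the 14 called cholesterol and fatty acid genes with a promoter entry and in 1.2% of tested genes, and nothing about the factor follows from that.

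Among metabolic genes under insulin and FOXO control was DEPP1, a FOXO target linked to autophagy. DEPP1 had the largest fall of the genes named by rule and called between 20 and 500 µg/mL. It read 19.7 and 20.5 CPM at 20, 17.5 and 14.4 at 100 and 10.9 and 9.75 at 500 µg/mL (log2 -0.97 ± 0.20, edgeR adjusted p = 0.00643). G6PC1, the last enzyme of glucose release, read 22.4 and 21.5, 20.7 and 19.7, and 15.0 and 14.2 CPM (log2 -0.59 ± 0.13, adjusted p = 0.0141). In both genes all libraries at 500 lay under those at 100. CCNG2, a FOXO-induced cyclin, fell by 0.40 (adjusted p = 0.0412), and SGK1, a kinase downstream of PI3K, from 26.6 and 27.6 to 18.5 and 19.5 CPM (log2 -0.51 ± 0.09, adjusted p = 0.000944). Of 13 FOXO and insulin targets 2 fell and none rose, with all 13 values below 0 and a median of -0.14. Of 9 gluconeogenesis genes only G6PC1 was called. DEPP1 lost its call without replicate 3 at 20 (adjusted p = 0.111) or either library at 500, SGK1 without replicate 2 at 500, and G6PC1 and CCNG2 without any 1 of the 4 libraries at 20 and 500.

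Calls among secreted and identity genes of the hepatocyte were all on the lower side. Of 21 secreted proteins 3 fell by edgeR and 5 by DESeq2, where 0.637% of all genes fell by edgeR. In this list 16 values were below 0, with a median of -0.13. The 3 called by edgeR were TTR, VTN and ITIH2. TTR, the thyroxine carrier transthyretin, fell by 0.48 from 203.9 and 190.4 to 138.8 and 144.4 CPM (edgeR adjusted p = 0.0106). VTN, vitronectin, fell by 0.27 and ITIH2, a hyaluronan-binding inter-alpha-inhibitor chain, by 0.21. ITIH1, a related chain, fell from 12.8 and 13.6 to 9.52 and 8.45 CPM (log2 -0.56 ± 0.09, adjusted p = 0.000131) and stayed called without any 1 library. TTR was not called without either library at 20 or replicate 2 at 500, and VTN and ITIH2 not without any 1 of those 4 libraries. ALB, albumin, read -0.12 (adjusted p = 0.659). Of 12 hepatocyte transcription factors NR0B2, a repressor of bile acid synthesis, fell by 0.33 (adjusted p = 0.0412). SLC30A1, the zinc exporter, fell by 0.27 as the only called gene of 10 in the metallothionein and zinc list, whose median was -0.31. WIPI1, an autophagy protein, fell by 0.32 as the only one of 22 lysosome and autophagy genes. PDGFRB, a fibroblast marker, fell from 6.31 and 5.89 to 4.43 and 4.34 CPM (adjusted p = 0.033). Calls of NR0B2 and PDGFRB were lost without any 1 of the 4 libraries at 20 and 500, and those of SLC30A1 and WIPI1 without either library at 20 or replicate 2 at 500.

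The remaining large falls by rule were of varied function. MATN3, a cartilage matrix protein, fell from 104.7 and 94.0 to 68.5 and 68.2 CPM (log2 -0.54 ± 0.08, edgeR adjusted p = 3.42e-05), and CSF3R, the G-CSF receptor, from 14.9 and 15.8 to 10.2 and 10.3 CPM (log2 -0.58 ± 0.10, adjusted p = 0.000643). FILIP1L, an inhibitor of cell migration, fell from 41.9 and 50.1 to 28.3 and 30.2 CPM (log2 -0.65 ± 0.16, adjusted p = 0.0271). SRCIN1, LRMDA and FAXDC2 fell by 0.61, 0.57 and 0.53. The call of CSF3R was lost without replicate 3 at 20, and those of FILIP1L, SRCIN1, LRMDA and FAXDC2 without at least 1 of the 4 libraries, for FAXDC2 at 9.21 CPM in 1 library and 12.5 in the other at 500. In 14 lists edgeR called 0 of 240 entries, with 30 at an unadjusted p under 0.05 and 3 called by DESeq2. These lists cover hypoxia, glycolysis, heat shock, endoplasmic reticulum chaperones, ATF4, p53, PPARA, NF-kappaB, YAP, hepcidin and iron, immediate early genes, S phase, mitosis and mitochondrially encoded proteins. Examples are ASNS, an ATF4 target, at 0.08 (adjusted p = 0.729) and CDKN1A, a p53 target, at -0.08 (adjusted p = 0.829). The unadjusted p was under 0.05 for 1914 of all 16651 genes tested. Among the 14 lists glycolysis had the most genes under it, 7 of 17, and the others between 1 and 4 each. Of the 17 glycolysis genes 13 had a value above 0, with a median of 0.13, and DESeq2 called 0.

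The libraries at 100 µg/mL divide the change into a lower and an upper step. They had the lowest mitochondrial share of counts of the 6 Angelica libraries, at 16.9% ± 0.24 (SD, n = 2) against 19.8% ± 2.96 at 20 and 19.7% ± 1.01 at 500 µg/mL. All 13 mitochondrially encoded genes were below 0 from 20 to 100 (median -0.31) and above 0 from 100 to 500 (median 0.41), with 0 called by edgeR in either step, and 0 and 4 at an unadjusted p under 0.05. With mitochondrial genes removed before scaling, the calls were 0 for the lower step, 37 for the upper step and 4 for the difference between the steps. From 20 to 100 µg/mL edgeR called 0 genes, 0% of those tested, with 728 at an unadjusted p under 0.05, and DESeq2 called 3. From 100 to 500 µg/mL 39 genes were called, of which 21 rose (0.126%) and 18 fell (0.108%). AKR1B10 (1.15), AKR1C2 (1.04), AKR1C1 (0.85), CYP1A1 (0.82), CPLX2 (0.58) and PTGR1 (0.52) were the largest rises by rule in this upper step. The largest falls were AGR2 (-0.55), a disulfide isomerase of secretory cells, SCNN1A (-0.51), the alpha subunit of the epithelial sodium channel, PBXIP1 (-0.44), SLC13A3 (-0.44), a dicarboxylate transporter, ACSS2 (-0.43) and ITIH1 (-0.43). AGR2 read 11.2 and 9.64 CPM at 20, 11.7 and 11.3 at 100 and 7.70 and 8.01 at 500 µg/mL. By list, 4 aldo-keto and carbonyl reductases, 3 thioredoxin and quinone genes and 2 glutathione genes rose in the upper step, and 5 cholesterol and 3 fatty acid synthesis genes fell. The count of 39 became 21 without replicate 2 at 100, 15 without replicate 3 at 100, 15 without replicate 2 at 500 and 83 without replicate 3 at 500. AGR2, SCNN1A and PBXIP1 were lost without any 1 of those 4 libraries, SLC13A3, ITIH1 and PTGR1 without at least 1 of them.

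Whether the steps differ was tested directly, as the log2 change of the upper step minus that of the lower. Only 4 genes passed, all higher (0.0240% of genes), none lower (0%), with 705 at an unadjusted p under 0.05. AKR1C2 read 0.97 ± 0.14 (edgeR adjusted p = 0.000399), AKR1C1 0.91 ± 0.13 (adjusted p = 0.000399) and AKR1B10 0.90 ± 0.16 (adjusted p = 0.00651). Their rise was thus larger between 100 and 500 than between 20 and 100 µg/mL. The fourth, PAIP1P1, lies outside the naming rule and is given after its values were seen. It is a pseudogene at 0 counts in both libraries at 100 and at 0.194 to 0.334 CPM in the other 4, too low to read. No gene was called without replicate 2 at 100, 1 without replicate 3 at 100 and 2 without replicate 2 at 20 µg/mL. For the other genes called between 20 and 500 µg/mL the difference between the steps did not pass the test.

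The change from 20 to 500 µg/mL was set against that of 2 other ethanol extracts in the same fit. Cnidii Rhizoma, called Cnidium, is the rhizome of another plant of the carrot family and had 3 libraries a dose. Paeoniae Radix, called Paeonia, is peony root and had 2 libraries a dose with the code prefix of Angelica. On their own, 2983 genes were called with Cnidium and 5068 with Paeonia. Of the 65 genes that rose with Angelica, 62 (95.4%, and 4.29% of Cnidium's rises) also rose with Cnidium and none fell, and of the 106 that fell, 97 (91.5%, and 6.31% of Cnidium's falls) fell with Cnidium and 1 rose. The share of all genes called with Cnidium was 8.68% higher and 9.23% lower. With Paeonia, 25 of the 65 (38.5%, and 0.92% of its rises) rose and 16 fell, and 16 of the 106 (15.1%, and 0.68% of its falls) fell and 54 rose, where 16.4% of all genes rose and 14.1% fell. Counts differ in power, since Cnidium had 1 more library a dose.

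Tested as a difference, the change differed from that with Cnidium for 204 genes, 90 higher with Angelica (0.541%) and 114 lower (0.685%). Genes of the NRF2 lists were on the lower side. AKR1B10 rose by 3.19 with Cnidium, from a mean of 37.5 to 343 CPM, and the difference was -1.79 ± 0.11 (edgeR adjusted p = 5.27e-15). PTGR1 (-1.69), AKR1C1 (-1.50), AKR1C2 (-1.35), GCLM (-1.29) and SLC7A11 (-1.10) followed. The rise was smaller with Angelica for 4 of 7 aldo-keto and carbonyl reductases, 6 of 7 thioredoxin and quinone genes, 5 of 11 glutathione genes and 3 of 7 heme and iron genes. Cholesterol and fatty acid synthesis differed for 1 of 21 and 1 of 17 genes, with list medians of -0.43 and -0.34 for Cnidium against -0.27 and -0.24 for Angelica. CYP1A1 went the other way. With Cnidium it rose from 8.91 to 12.9 CPM, a log2 change of 0.54, and the change with Angelica was larger by 0.91 ± 0.17 (adjusted p = 0.000972). Others that were higher with Angelica were SLC2A3 (0.92), a glucose transporter, BMF (0.91), a BH3-only cell death protein, FSTL3 (0.90), MMP11 (0.90) and the pseudogene ACSL3P1 (1.35), whose parent gene can share its reads. In these 5 genes Cnidium lowered the level and only BMF was called with Angelica, as a smaller fall. The count of 204 was 119 without either Angelica library at 20 and 128 without replicate 2 at 500 µg/mL.

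**Figure D3:**
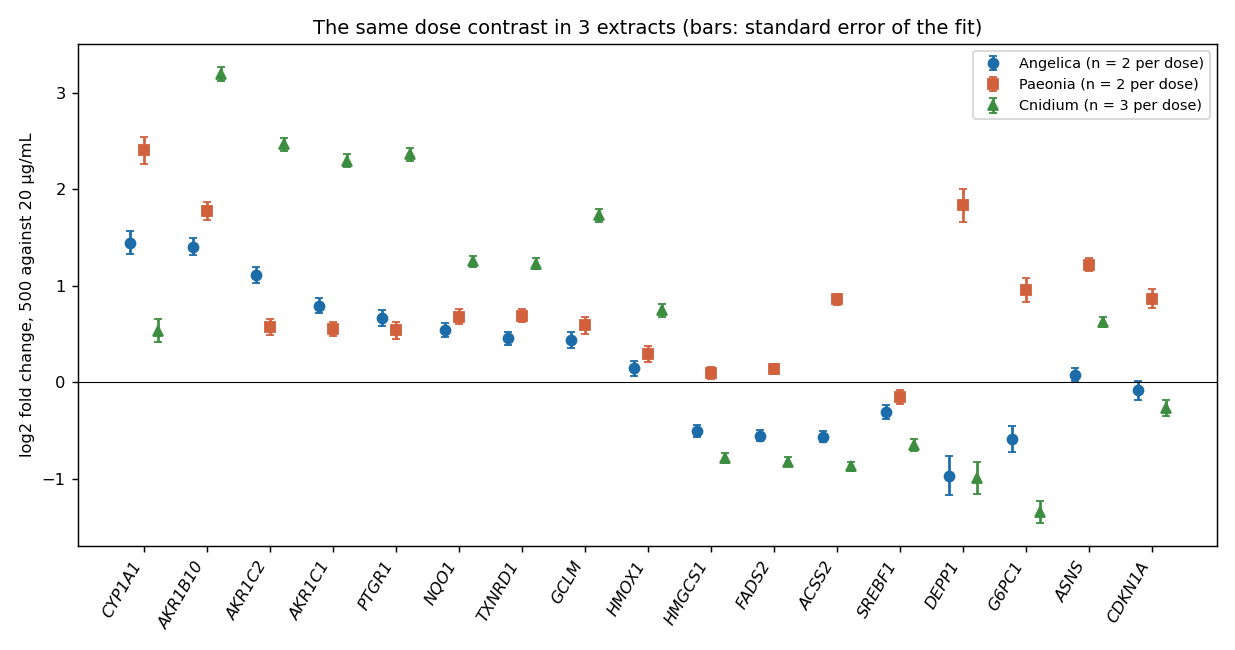
The log2 change from 20 to 500 µg/mL is drawn for named genes in Angelica, Paeonia and Cnidium, with bars for the SE of the fit. AKR1B10 and AKR1C2 rise most with Cnidium, CYP1A1 most with Paeonia, and DEPP1 and ACSS2 fall with Angelica and Cnidium and rise with Paeonia.

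Against Paeonia the change differed for 3584 genes, 1645 higher with Angelica (9.88%) and 1939 lower (11.6%). Cholesterol synthesis genes had a median of 0.30 with Paeonia, where 15 of 21 rose and none fell, and of -0.27 with Angelica, and 18 of 21 differed, all lower with Angelica. Fatty acid synthesis was mixed with Paeonia, with 7 of 17 genes higher, 5 lower and a median of 0.14, and the difference gave 10 lower and 3 higher with Angelica. ACSS2 rose by 0.86 with Paeonia, a difference of -1.42 ± 0.08 (edgeR adjusted p = 2.62e-16), and DEPP1 rose by 1.83, a difference of -2.80 ± 0.26 (adjusted p = 1.08e-10). Lists in which edgeR called no gene with Angelica differed too. Of these, 16 of 19 hypoxia targets, 18 of 28 ATF4 targets and 12 of 15 immediate early genes were lower with Angelica. With Paeonia itself 19 of 19, 20 of 28 and 14 of 15 genes of these lists were called higher and none lower. In the other direction, 20 of 23 S phase and 20 of 22 mitosis genes were higher with Angelica. With Paeonia itself 20 of 23 and 21 of 22 were called lower, and 1 S phase gene higher. IGFBP1 (-3.13), EGR1 (-2.23) and FILIP1L (-2.21) were among the largest on the lower side, and MT1G (2.5), HAMP (2.47), GSTA2 (2.17), MT1F (2.15) and GSTA1 (1.91) on the higher. Of these only FILIP1L, GSTA1 and GSTA2 were called with Angelica itself, and a gene not called may still have changed. The metallothioneins and the GSTA pair share reads with close copies and are uncertain. EIF3CL (-7.67) and ZNG1F (1.83) are members of near-identical gene families and also met the rule. EIF3CL lost its call without replicate 2 of Angelica at 500 (adjusted p = 0.0581) or replicate 2 of Paeonia at 20 (adjusted p = 0.0584) or 500 (adjusted p = 0.11), and ZNG1F lost it without any 1 of the 8 libraries of both extracts at 20 and 500. CYP1A1 rose more with Paeonia, by 2.40 from 10.5 to 55.4 CPM, a difference of -0.95 ± 0.18 (adjusted p = 0.00011). Its level at 500 µg/mL was nevertheless higher with Angelica, at 95.6 CPM, since it started from 35.1 CPM. The aldo-keto reductases differed less between these extracts, with AKR1C2 larger with Angelica by 0.54 ± 0.12 (adjusted p = 0.000608) and AKR1B10 smaller by 0.37 (adjusted p = 0.0325).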

How the data were processed

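HepG2 RNA with an integrity number above 7 was made into strand-preserving libraries and read as pairs of 100 bp, per the labels' protocols. The deposited values are expected counts per gene. The submitters' processing notes name FastQC 0.11.9, Trim Galore 0.6.5, STAR 2.7.3a, RSEM 1.3.3 and GRCh38, and the annotation release is not given in the sources used here. Of the deposited expected counts 8.21% are not whole (tolerance 1e-09), and they were rounded. The table holds 60675 genes, of which 57055 were given a symbol, with GENCODE 29 as the source of positions. Of 270 columns 210 belong to no sample used here and were left out. Groups and doses come from the treatment labels.

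One edgeR 4.0.16 quasi-likelihood model (R 4.3.3) of the 57 extract libraries in 24 groups of extract and dose, with 33 residual degrees of freedom, gave all contrasts. Genes were filtered with filterByExpr and scaled by TMM (factors 0.941 to 1.012 for Angelica). The common coefficient of biological variation was 0.061. SE is the log2 change divided by the square root of F. Between the 2 libraries of a dose the chi-square per degree of freedom over genes with at least 20 counts was 16.2 at 20, 3.85 at 100 and 12.9 at 500 µg/mL, above counting error, and no 2 libraries were identical. The residual correlation of equally numbered libraries was -0.032, -0.026 and 0.066, so the numbers were not taken as pairs. On simulated counts for 500 against 20 µg/mL (16651 genes) the test recovered 92% of 100 genes changed 2-fold and 70% of 100 changed 1.4-fold, with 2.99% of calls false. These counts were drawn from the means and spread that the same model had fitted, with the same spread per gene at every dose. Genes of the lowest levels were not changed. The shares therefore hold only where that model describes the libraries.

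Named genes were the 12 largest changes each way from 20 to 500 µg/mL with an adjusted p below 0.05, at least 5 CPM and no overlap, up to 4 called members of each of 35 gene lists, a panel of genes, and the 6 largest each way in the other contrasts. Further list members complete small counts. Some genes that the rule names are not reported here. The members and lists were chosen with earlier results of these data known, and lists are described by counts and medians without a set test. DESeq2 1.42.0, other filters, scalings and sets of libraries, a replicate block and left-out libraries were the alternatives.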

Additional observations from a re-analysis of the deposited data

Results flagged for a closer look

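The 24 largest changes and the gene panel make 31 genes, of which CYP1B1 did not pass the filter. For the others the change from 20 to 500 µg/mL with Angelica was tested against that with Paeonia and with Cnidium in the same edgeR model. Of these differences 20 and 16 passed an adjusted p below 0.05, where 3584 and 204 of all 16651 genes did. The largest rises and falls were chosen in the same Angelica libraries, which favours differences in their own direction. Values are log2 differences, Angelica minus the other extract.

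Against Paeonia the reductases and CYP1A1 were divided. CYP1A1 differed by -0.95 and AKR1B10 by -0.37, whereas AKR1C2 (0.54), CPLX2 (0.50) and CYP24A1 (0.48) rose more with Angelica. ABCC3 (0.88) and ALDH1A1 (0.79) rose with Angelica and fell with Paeonia, where they read -0.29 and -0.21. Of the 12 largest falls with Angelica 11 differed, all with negative values, which the choice of genes by their fall in the same Angelica libraries favours, at -2.80 for DEPP1, -2.21 for FILIP1L, -1.54 for G6PC1, -1.42 for ACSS2, -1.26 for FAXDC2, -1.23 for MATN3, -1.01 for SRCIN1, -0.85 for SGK1, -0.69 for FADS2, -0.48 for CSF3R and -0.47 for ITIH1. Panel genes that were not called with Angelica differed as well, with -1.14 for ASNS and -0.95 for CDKN1A, both of which rose with Paeonia.

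Against Cnidium the genes with NRF2 as a known regulator were on the lower side, at -1.79 for AKR1B10, -1.69 for PTGR1, -1.50 for AKR1C1, -1.35 for AKR1C2, -0.76 for OSGIN1, -0.76 for ABCC3, -0.71 for NQO1 and -0.60 for HMOX1. CPLX2 (-0.76), ALDH1A1 (-0.58) and ASNS (-0.54) were lower too. CYP1A1 (0.91) rose more with Angelica. G6PC1 (0.75), SGK1 (0.63), MATN3 (0.44) and ACSS2 (0.30) fell less with Angelica. Cnidium carries another code prefix than Angelica, so extract and prefix cannot be told apart in these differences.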

How the results depend on the processing

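No called named gene changed its direction under any alternative run, whereas medians of several lists near 0 changed sign in some, such as glutathione transferases (-0.002) and PXR and CAR targets (-0.033) without replicate 2 at 500 µg/mL and immediate early genes with a minimum of 5 CPM (-0.092 to 0.053). Counts of called genes moved more than directions. From 20 to 500 µg/mL the 171 calls became 269 with DESeq2, 383 without a filter on low counts, 109 with the 12 libraries of the code prefix only and 67 with the 6 Angelica libraries only, and ranged from 29 to 193 when libraries were left out. From 20 to 100 µg/mL the 0 calls became 3 with DESeq2, 86 without a filter, 4 with the 6 libraries, 1 with the 12 libraries and 1 with all 60 libraries, and stayed at 0 in each fit with a library left out. From 100 to 500 µg/mL the 39 calls became 71 with DESeq2, 265 without a filter and 18 with the 6 libraries, with a range of 8 to 83. The 4 calls for the difference between the steps became 122 without a filter and 8 with the 6 libraries, with a range of 0 to 4. Against Paeonia the 3584 calls ranged from 2297 to 3565 and against Cnidium the 204 from 79 to 215. With a library left out, 1 library of a dose is assumed to vary like the other groups, and fits with all of replicate 2 or 3 left out gave the lowest counts. With a replicate block of code prefix and number, which the labels do not explain, the counts were 228, 1, 56, 3, 3819 and 252 in the same order. Comparisons with other extracts could not be made with the 6 libraries only, nor that with Cnidium with the 12. With motifs read on the gene strand only, GCGTG was in 32.7% of tested genes, 37.5% of rises and 35.9% of falls, and TGACNNNGC in 8.3%, 10.4% and 7.7%. The spread between the 2 libraries of a dose exceeded counting error at this depth.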

Other observations

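Metallothionein genes, which encode zinc-binding proteins, had negative values from 20 to 500 µg/mL that did not pass the test in the main edgeR fit. MT2A read -0.66, MT1F -0.59 (edgeR adjusted p = 0.0723), MT1G -0.45 (adjusted p = 0.343) and MT1E -0.36. MT1G read 132.2 and 122.4 CPM at 20 and 75.1 and 110.5 CPM at 500 µg/mL, so its 2 libraries at 500 differed from each other more than those at 20. Of the 10 genes of the metallothionein and zinc list 9 had a value below 0, and values ran from -0.91 to 0.28. In the main fit 1 of them was called lower, SLC30A1. The number called lower was 2 by DESeq2, 2 with a minimum of 5 CPM and 4 without a filter on low counts. The metallothionein genes share reads with close copies.

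EIF3CL, a near-copy of a translation factor gene, read 83.9 and 61.1 CPM at 20, 66.5 and 46.5 at 100 and 3.93 and 19.0 at 500 µg/mL. ZNG1F, of a family of near-identical genes, read 6.48 and 7.00, 5.71 and 6.26, and 19.8 and 18.2 CPM. Neither passed the test between 20 and 500 µg/mL (edgeR adjusted p = 0.486 and 0.054), and how reads were divided among the copies cannot be seen in gene counts.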
